A study of Mus musculus with 6 samples.

Results

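The Sprouty and SPRED genes encode inhibitors of receptor tyrosine kinase signalling. The members described here are SPRY1, SPRY2, SPRY4, SPRED1 and SPRED2, taken as every probe set (a group of short probes against a single transcript region) that the array's annotation assigns to one of these 5 gene symbols alone. They are 5 of the 19775 genes with such a probe set. The rule gave 10 of the 54675 probe sets on the array: 2 for SPRY1, 1 for SPRY2, 1 for SPRY4, 3 for SPRED1 and 3 for SPRED2. The samples were tumours of NCI-H2228, a human lung adenocarcinoma line that carries an EML4-ALK fusion gene, grown under the skin of SCID mice, which lack working B and T lymphocytes. The mice were given the ALK kinase inhibitor CH5424802 (alectinib) by mouth at 4 mg/kg or 20 mg/kg, or its vehicle with no inhibitor, and tumours were lysed 6 h after dosing. Each of the 3 groups has 2 arrays, and all 3 share the cell line, the host strain and the sampling time. Neither the age of the mice, nor the number of doses, nor whether the 2 arrays of a group came from separate animals is given in the sources used here. The p-values thus reflect the spread among these 6 arrays alone, and that spread may be only technical.

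Activated receptor kinases, and fusions such as EML4-ALK, load RAS with GTP, which starts the relay from RAF to MEK to ERK. ERK in turn induces genes whose products dampen the same relay, and Sprouty and SPRED genes are among the best known of them. Sprouty proteins act near the receptor, where they bind adaptors and the ubiquitin ligase CBL. SPRED proteins bring neurofibromin, a RAS GTPase-activating protein, to the membrane, where it returns RAS to its inactive form. Proteins of both families end in a shared cysteine-rich Sprouty domain, and SPRED proteins begin with an EVH1 domain that binds neurofibromin.

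Epithelial markers of the labelled tumour were present in all arrays. All 8 epithelial and lung markers were detected, with mean log2 intensities from 11.65 to 14.41, among them NKX2-1 and NAPSA, which mark lung adenocarcinoma. Markers of other cell types were in part above the level needed for testing, a mean log2 of 4. Of 6 fibroblast markers 4 had a mean log2 of at least 4, with COL1A1 at 15.04, COL1A2 at 10.92, COL3A1 at 10.27 and DCN at 5.98, while LUM and PDGFRB lay within 1 log2 unit of the lowest value of the table (2.195 on the log2 scale) in every array. Of 4 endothelial markers PECAM1 (8.65) and KDR (6.58) were above 4, and VWF and CDH5 were near the lowest value. Of 3 leukocyte markers with a probe set assigned to them alone, LYZ (5.69) was the only one above 4, and PTPRC was near the lowest value. DCN read the same value in all 6 arrays. LYZ was tied at 5.690 in every array but vehicle replicate 1 (5.698). Whether these tied values are signal from such cells was not tested. The markers tested were 4 of fibroblasts, 2 of endothelium and 1 of leukocytes, and none passed in any comparison. The ties left DCN no change to test and LYZ almost none. For the rest, a p that misses the threshold does not show that the share of these cells stayed the same. The summed intensity of the fibroblast list ran from 36009 to 38573 with vehicle, from 35898 to 37139 at the lower dose and from 35251 to 39710 at the higher dose. Most of this sum is the intensity of COL1A1, so it says little about the other markers of the list. The labelled organism is mouse although the probes are for human genes, and the share of signal from mouse cells was not measured. The summed intensity of the 8 epithelial markers ran from 81833 to 90755 with vehicle, from 87841 to 89866 at 4 mg/kg and from 70803 to 80325 at 20 mg/kg. Of the 8 markers KRT18 fell at 20 mg/kg (log2 -1.54, SE 0.18, limma adjusted p = 0.0416) and the other 7 did not pass. Their log2 changes were 0.50 for EPCAM, 0.23 for CDH1, 0.10 for NKX2-1 and -0.06 for NAPSA. The keratins KRT19, KRT8 and KRT7 were at -0.34, -0.88 and -0.92. The part of this list in the results below was not tested. In bulk tumour RNA, fewer cells of a type and less RNA per cell cannot be told apart. A control probe set for the 5′ part of 18S ribosomal RNA read 1713 and 4058 with vehicle against 374 to 637 in the treated arrays. That for the middle part read 577 and 1209 against 133 to 298. The one for the 3′ part read 64.6 and 453 against 43.4 to 47.8. What this difference means for the comparisons against vehicle was not tested. ALK itself was at a log2 change of -0.08 and EML4 at 0.04 between 20 mg/kg and vehicle, and neither passed the test.

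All 5 genes were lower at 20 mg/kg than with vehicle, in both arrays and with no overlap between the groups. Both SPRED genes were lower by more than the 3 Sprouty genes, at 13.7% and 15.7% of their vehicle level against 33.5% to 38.6% (ratios of geometric mean intensities). The difference between the families was not tested, and the order holds for the brightest probe sets. With the mean of each gene's probe sets, those near the lowest value included, the log2 change was -1.35 for SPRED1 and -0.91 for SPRED2, against -0.91 for SPRY1, -1.55 for SPRY2 and -1.37 for SPRY4. SPRED1, SPRED2 and SPRY1 passed the test across all genes, and SPRY2 and SPRY4 did not. The test was limma's moderated linear model over all 6 arrays, with 1 probe set a gene (the brightest), 10271 genes tested and Benjamini-Hochberg adjusted p-values under 0.05 called. It called 3 of the 5 members, all lower. Over all tested genes 4.33% were called in either direction and 2.07% were called lower. Both 20 mg/kg arrays lay below both vehicle arrays for 5 of 5 members and for 25.9% of all genes. The median log2 change of the 5 members was -1.58, against 0.00 over all genes. All 5 fell on the list of 218 genes (2.12%) whose mean log2 value was lower by at least 1.

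**Figure D1:**
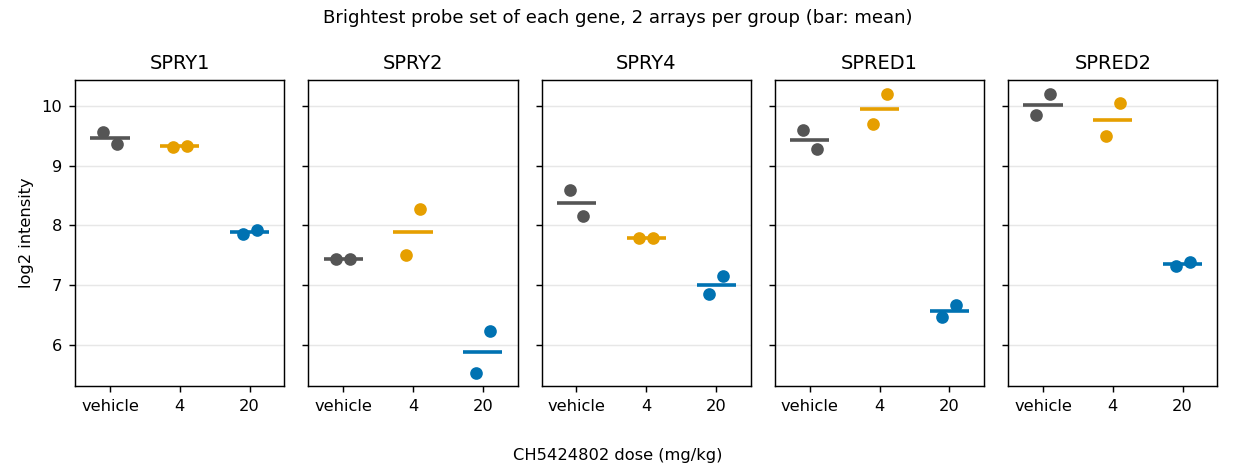
Log2 intensity of the brightest probe set of each gene (y axis) in the vehicle, 4 mg/kg and 20 mg/kg groups (x axis); points are the 2 arrays of a group and bars their mean. For each gene both 20 mg/kg arrays sit below the other 4 arrays, while the 4 mg/kg arrays lie above vehicle for SPRY2 and SPRED1 and below it for SPRY4.

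SPRED1 is the gene whose loss causes Legius syndrome, a disorder of raised RAS signalling. Its brightest probe set read 770 and 621 with vehicle, 833 and 1178 at 4 mg/kg, but 88.4 and 102 at 20 mg/kg (linear intensity, replicate 1 and then replicate 2 in each group). The 4 mg/kg arrays were the highest and the 20 mg/kg arrays were far below the rest, with no overlap between any pair of groups. At 20 mg/kg SPRED1 fell 7.30-fold against vehicle (log2 -2.87, SE 0.23, 95% interval -3.52 to -2.21, adjusted p = 0.0257, n = 2 arrays per group), the 11th lowest change among the 10271 genes. Its log2 change at 4 mg/kg was 0.52 (95% interval -0.13 to 1.17, adjusted p = 0.391), so a rise or little change are both within the interval. Between 20 and 4 mg/kg its log2 difference of -3.39 (SE 0.23, adjusted p = 0.0502) was the 2nd lowest of all genes and lay just outside the threshold.

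The other 2 SPRED1 probe sets were dimmer and moved less. The probe set 244439_at read 72.2 and 50.4 with vehicle, 46.5 and 53.9 at 4 mg/kg, with 50.4 and 28.4 at 20 mg/kg. Its 20 mg/kg replicate 1 nearly touched vehicle replicate 2, and the log2 change at 20 mg/kg was -0.67 (95% interval -1.74 to 0.39). The probe set 235074_at read 29.9 and 26.3 with vehicle, 26.3 and 33.4 at 4 mg/kg, but 18.4 and 21.0 at 20 mg/kg, where its log2 change was -0.51 (95% interval -0.97 to -0.05). Neither passed in a second fit over all 19830 probe sets with a mean log2 value of at least 4 (adjusted p = 0.426 and 0.206). That fit held 7 of the 10 member probe sets. It called the brightest ones of SPRED1, SPRED2 and SPRY1 at 20 mg/kg against vehicle, where 2.63% of all probe sets were called. None was called at 4 mg/kg against vehicle (0.00504% of all) and that of SPRY1 alone between the doses (0.212%). Which of the 3 probe sets reads the SPRED1 transcript best was not tested. These probe sets were, at the lower dose, at log2 changes of -0.27 and 0.08, so the higher reading of SPRED1 at this dose rests on the brightest probe set.

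SPRED2, the second member of the SPRED family, likewise binds neurofibromin. Its brightest probe set read 917 and 1177 with vehicle, 719 and 1054 at 4 mg/kg, but 159 and 168 at 20 mg/kg. Vehicle and 4 mg/kg arrays overlapped, and the 20 mg/kg arrays lay far below both. The fall against vehicle at 20 mg/kg was 6.36-fold (log2 -2.67, SE 0.24, 95% interval -3.37 to -1.97, adjusted p = 0.031, n = 2 arrays per group), the 13th lowest change of all genes. The log2 change at 4 mg/kg was -0.26 (95% interval -0.95 to 0.44, adjusted p = 0.619), and it was 0.020 without 4 mg/kg replicate 1. Between the doses it was -2.41 (SE 0.24, adjusted p = 0.0812), the 9th lowest, which did not pass. Its other 2 probe sets, 212466_at and 214026_s_at, stayed within 1 log2 unit of the lowest value of the table in all 6 arrays and give no level of SPRED2.

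SPRY1 is a Sprouty gene known for restraining growth factor signals in the developing kidney. Its brightest probe set read 758 and 658 with vehicle, 635 and 643 at 4 mg/kg, but 232 and 242 at 20 mg/kg. The arrays of each treated group were close together, with log2 gaps of 0.02 at 4 mg/kg and 0.06 at 20 mg/kg. At 20 mg/kg SPRY1 fell 2.98-fold (log2 -1.58, SE 0.08, 95% interval -1.81 to -1.35, adjusted p = 0.0149, n = 2 arrays per group), with the smallest standard error of the 5 members. The lower dose gave log2 -0.14 (95% interval -0.37 to 0.09, adjusted p = 0.49), an interval that leaves little room for a change of the size seen at the higher dose. It was the only member called between 20 and 4 mg/kg, where it fell 2.70-fold (log2 -1.43, SE 0.08, adjusted p = 0.0399). Its other probe set, 230212_at, read 4.75 and 6.18 with vehicle and 4.58 in each treated array, at or near the lowest value of the table.

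SPRY2 binds CBL and the adaptor GRB2 and is the most studied Sprouty protein. With vehicle its only probe set read 173 in both arrays. It read 182 and 311 at the lower dose and 46.5 and 75.5 at the higher dose. The groups did not overlap, but the 2 arrays of each treated group lay 0.77 and 0.70 log2 units apart. The log2 change at 20 mg/kg was -1.55 (SE 0.38, 95% interval -2.64 to -0.45, unadjusted p = 0.0179), which did not pass the test across all genes (limma adjusted p = 0.122). The lower dose gave 0.46 (95% interval -0.64 to 1.55, adjusted p = 0.577), with both arrays above vehicle, and between the doses -2.00 (95% interval -3.10 to -0.91, adjusted p = 0.172). The difference between the doses was the 21st lowest of all genes.

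SPRY4, whose protein inhibits the activation of RAS and RAF, had its 4 mg/kg arrays between those of the other groups, as did SPRY1. Its only probe set read 384 and 287 with vehicle, 221 in both arrays at 4 mg/kg, but 115 and 142 at 20 mg/kg. The log2 change at 20 mg/kg was -1.37 (SE 0.19, 95% interval -1.92 to -0.83, limma adjusted p = 0.0543), just outside the threshold. At 4 mg/kg it was -0.59 (95% interval -1.13 to -0.04, unadjusted p = 0.0403, adjusted p = 0.27), and between the doses -0.78 (95% interval -1.33 to -0.24, adjusted p = 0.234). The equal values of SPRY4 at 4 mg/kg and of SPRY2 with vehicle are ties of the deposited table, so the spread of these genes comes from the remaining groups. Such ties in at least 1 group were found for 3316 of the 10271 genes.

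**Figure D2:**
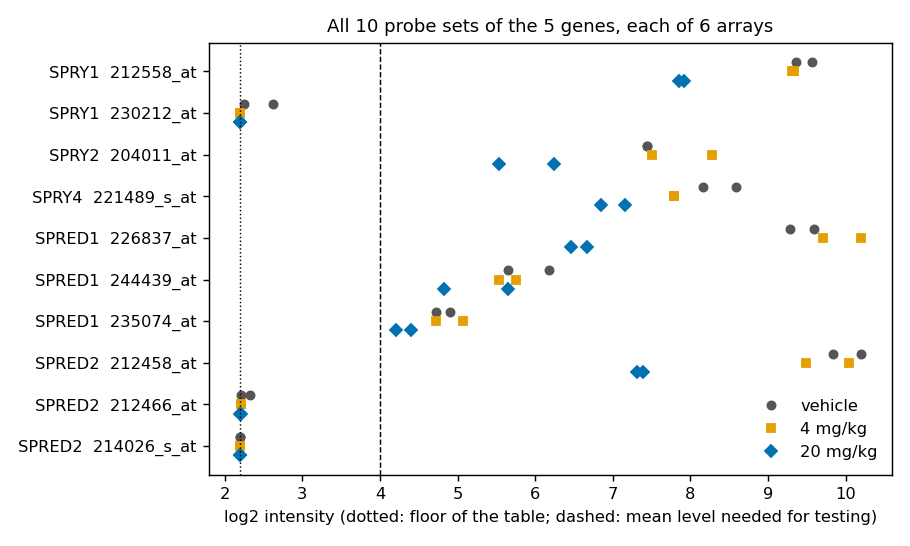
Log2 intensity (x axis) of all 10 probe sets of the 5 genes (y axis), with each of the 6 arrays as a point coloured by group; the dotted line is the lowest value of the table and the dashed line the mean level of 4 needed for testing. The 3 probe sets under the dashed line stay within 1 log2 unit of the lowest value in every group, and in the other 7 the 20 mg/kg arrays are lowest or share the lowest range.

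At 4 mg/kg none of the 5 members was called. limma called 6 of the 10271 genes in this comparison (0.0584%), and 1745 genes had an unadjusted p under 0.05. It called 475 without vehicle replicate 1, 156 without 4 mg/kg replicate 1 and 0 without any of the other 4 arrays, with no member among them. Both 4 mg/kg arrays lay below both vehicle arrays for SPRY1 and SPRY4 and above both for SPRY2 and SPRED1, while those of SPRED2 overlapped. The separation of SPRY1 was 0.03 log2 units and that of SPRY2 0.07, where the vehicle readings of SPRY2 are tied. For 14.8% of all genes both 4 mg/kg arrays lay below both vehicle arrays. The share of all genes with both above was not counted, so the separations of SPRY2 and SPRED1 have no background beside them. The median log2 change of the members was -0.14, against 0.00 over all genes. Whether the members differ from one another at this dose was not tested.

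The means of 20 and 4 mg/kg were compared within the fit over all 6 arrays, so the vehicle arrays enter the estimate of the spread. All 5 members were lower at 20 mg/kg in both arrays, as were 22.8% of all genes. Only SPRY1 passed, in a comparison in which limma called 38 genes (0.37%), 25 of them lower (0.243%). With limma fitted to the 4 compared arrays alone, SPRY1 had an adjusted p of 0.0759 and the count over all genes was 0. In the fit over all arrays 1378 genes had an unadjusted p under 0.05. The share of lower genes among the called ones was 65.8%, and 54.7% after quantile normalization. The call of SPRY1 was lost without any 1 of the 6 arrays, and SPRED1 was called without 4 mg/kg replicate 1. The count over all genes was 218 without that array, 2 without 20 mg/kg replicate 1 and 0 without each of the others. The log2 differences ran from -0.78 for SPRY4 to -3.39 for SPRED1, with a median of -2.00, against -0.01 over all genes. For SPRED1 and SPRY2 the difference between the doses was larger than that between 20 mg/kg and vehicle, because their 4 mg/kg readings stood above vehicle. The comparisons share arrays and are not independent of each other.

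**Figure D3:**
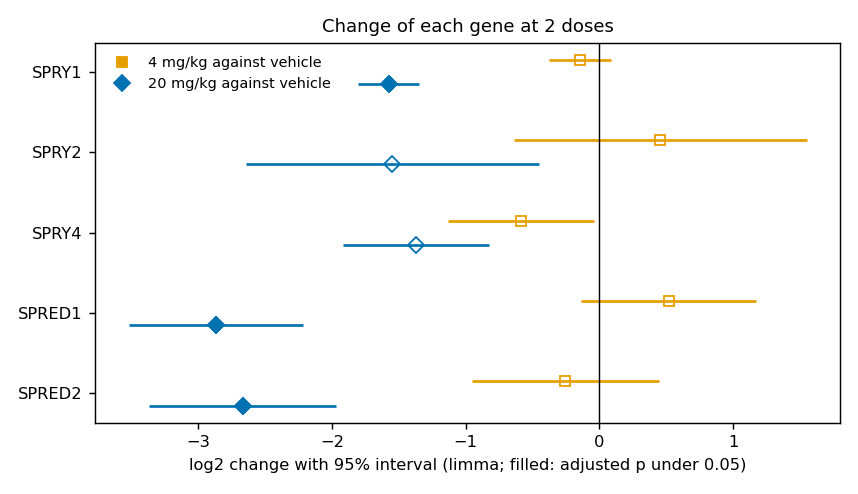
Log2 change against vehicle (x axis) of each gene (y axis) at 4 mg/kg and 20 mg/kg, as limma's estimate with its 95% interval; filled symbols passed the test across all genes. All 5 intervals at 20 mg/kg lie below 0, around estimates from -1.37 for SPRY4 to -2.87 for SPRED1. The upper limit nearest to 0 is -0.45, for SPRY2. At 4 mg/kg only the interval of SPRY4 lies below 0.

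These calls rest on few arrays. Without any 1 of the 6 arrays SPRED1 and SPRED2 lost their call at 20 mg/kg against vehicle, with log2 changes from -3.02 to -2.71 (adjusted p from 0.0535 to 0.137) and from -2.85 to -2.49 (adjusted p from 0.0527 to 0.159). SPRY1 kept its call without vehicle replicate 1 or vehicle replicate 2 and lost it without either array of 4 mg/kg or of 20 mg/kg, with log2 changes from -1.68 to -1.47 and an adjusted p of at most 0.0933. After quantile normalization, or with each array centred on its median, all 5 members were called lower at 20 mg/kg against vehicle. Calls over all genes also rose in these settings, from 445 to 1536 and to 1958. Over all genes the 445 calls became 802 without vehicle replicate 1, 104 without vehicle replicate 2, 136 without either 4 mg/kg array, and, at 20 mg/kg, 19 without replicate 1 and 5 without replicate 2.

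The deposited levels of different genes cannot be compared on this array, so each profile was taken as departures from the gene's own mean. These were not scaled, so the distance reflects the size of the changes as well as their shape. For each member the 3 genes with the smallest root mean square distance over the 6 arrays were taken, after centring each gene's log2 values on their mean. For SPRED2 these were ANKRD22 (distance 0.10 log2 units), the microRNA host gene MIR100HG (0.18) and ETV5 (0.18), an ETS transcription factor that ERK signalling induces. For SPRED1 they were the chemokine CXCL8 (0.34), PHLDA1 (0.42) and cyclin D1, CCND1 (0.42), and SPRED2 came 4th (0.46). SPRY1 was closest to the kinase MAP3K9 (0.08), the interleukin 1 receptor subunit IL1RAP (0.10) and the adaptor PAG1 (0.12). SPRY4 was closest to the RNA export factor NXT1 (0.09), CHSY1, which makes chondroitin chains (0.13), and LETM2 (0.14). SPRY2 was closest to the EGF-family ligand EREG (0.15), the chemokine CXCL1 (0.27) and the ephrin receptor EPHA4 (0.27). Ranked from each member in turn, the nearest other member came 79th for SPRY1 (SPRY4), 28th for SPRY2 (SPRY1), 137th for SPRY4 (SPRY1) and 26th for SPRED2 (SPRED1). The furthest was SPRED1 for SPRY1 (8259th), SPRY2 (434th) and SPRY4 (10012th). It was SPRY4 for SPRED1 (143rd) and SPRED2 (132nd).

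The remaining family members SPRY3 and SPRED3 are named with their values already seen. SPRY3 read between 16.1 and 25.0 in the 6 arrays, with a log2 change of 0.17 at 20 mg/kg (adjusted p = 0.749), and its groups overlapped. SPRED3 lay within 1 log2 unit of the lowest value of the table in every array, where no fall could be read.

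Among other inhibitors of receptor and ERK signalling, 9 of a list of 12 genes were tested. At 20 mg/kg against vehicle 3 fell, 1 rose and 5 did not pass, with a median log2 change of -0.71. Over all tested genes 4.33% were called in either direction and 2.07% lower. This list too was chosen with earlier results of these data known. DUSP6, a phosphatase that inactivates ERK, fell by 5.47 on the log2 scale (SE 0.15, adjusted p = 0.0104). ERRFI1, which inhibits the EGF receptor family, fell by 1.96 (SE 0.20, adjusted p = 0.035) and the phosphatase DUSP4 by 1.50 (SE 0.19, adjusted p = 0.0475). LRIG1, a membrane protein that promotes the breakdown of receptors, rose (log2 1.44, SE 0.18, adjusted p = 0.0466). The fall of SPRY1 was thus close in size to that of DUSP4, and those of SPRED1 and SPRED2 lay between ERRFI1 and DUSP6. None of the 9 passed at 4 mg/kg, where their median was -0.26, and DUSP6 alone passed between the doses.

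Of 14 transcripts that follow ERK activity, 11 were tested. At 20 mg/kg against vehicle 8 fell and 3 did not pass, with a median of -1.90. Over all tested genes 2.07% were called lower. Those of the list that did not pass were JUNB (log2 -1.37), IER2 (-0.36) and EGR1 (-0.30). The list was chosen with earlier results of these data known, so its count is not independent of them. The largest falls were in IER3, an early response gene (log2 -3.64, SE 0.09), the cell cycle gene CCND1 (-3.56, SE 0.26), PHLDA1 (-2.89, SE 0.19) and ETV5 (-2.72, SE 0.06), each called by limma. None of the 11 passed at 4 mg/kg, and their median was -0.36. Between the doses ETV5 and IER3 passed.

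Sprouty and SPRED proteins act on the relay itself. Of 21 relay genes from GRB2 to the ERK target kinases, 14 were tested and the others were not analysed here. ARAF, a RAF kinase, fell at 20 mg/kg (log2 -0.47, SE 0.05, adjusted p = 0.0362), the other 13 did not pass, and the median was -0.05. With 4.33% of all tested genes called, 1 call among 14 genes is near the background. Of 15 partners and regulators of Sprouty and SPRED proteins, 11 were tested and none passed in any comparison, with a median of 0.06 at 20 mg/kg. The largest values were PTPN11 at 1.34 (adjusted p = 0.156), a phosphatase that acts on Sprouty proteins, and SIAH1 at 0.95 (adjusted p = 0.145), a ubiquitin ligase. PTPN11 was at 1.53 at the lower dose (adjusted p = 0.212). A p that misses the threshold does not show that these genes did not change.

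**Figure D4:**
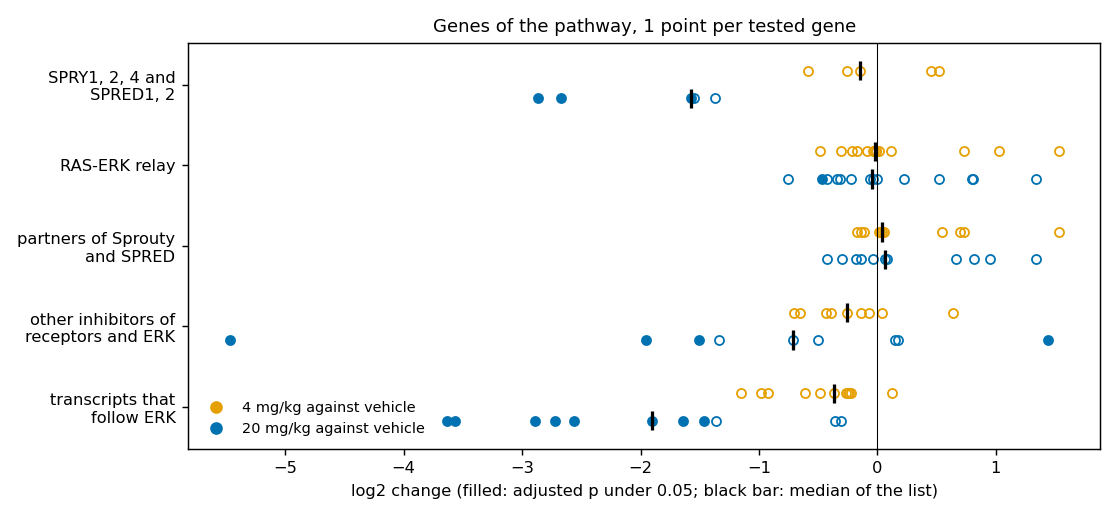
Log2 change against vehicle (x axis) of the members and of 4 pathway lists (y axis), with 1 point per tested gene at each dose, filled where it passed the test, and a black bar at the median. At 20 mg/kg the medians are -1.58 for the members, -0.71 for other inhibitors and -1.90 for transcripts that follow ERK, and within 0.1 of 0 for the relay and the partners.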

How the data were processed

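GCRMA in R produced the deposited intensity values (linear scale, a column per array), per the submitters' processing notes, which name R 2.10.0. GCRMA corrects background by probe sequence, quantile normalizes arrays and summarises probes by median polish, which can make values of different arrays exactly equal (within 1e-06 log2 units here). The set of arrays the authors normalized together is unknown. Column medians ran from 5.024 to 5.151, and the lowest intensity was 4.578, shared by 39.56% to 40.29% of probe sets an array.

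Intensities were converted to log2. Of 54675 probe sets 41097 had a single symbol in the platform annotation, 1801 several and 11777 none. limma 3.58.1 in R 4.3.3 (lmFit, eBayes) was fitted over 3 groups without covariates, two-sided, with Benjamini-Hochberg adjustment over all genes. It used each gene's brightest single-gene probe set with a mean log2 of at least 4, which left 10271 of 19775 genes. A second fit took all 19830 probe sets at that level. With 3 residual and 0.723 prior degrees of freedom the moderation drew little on other genes (prior SD 0.0418, median residual SD 0.135). Precision is limited by the number of arrays. The code was tested on simulated data. The members, lists and tests were chosen with earlier results of these data known. Named genes were the members, up to 4 genes of each list past the test with the largest change (or the 2 largest values where none passed), the 3 nearest profiles of each member, ALK and EML4. No human sequence or genome coordinate was used here.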

Additional observations from a re-analysis of the deposited data

How the results depend on the processing

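The gene fit was repeated under 17 alternatives and the probe-set fit under 14, and both under 1 added after seeing the data, which left out features tied in all 3 groups. All members stayed lower at 20 mg/kg against vehicle and against 4 mg/kg wherever they could be fitted. At 4 mg/kg SPRED1 turned to -0.27 with its next brightest probe set and SPRED2 ran from -0.53 to 0.020 with 1 array left out. Counts follow in the order high dose against vehicle, low dose against vehicle and high against low dose.

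All genes called numbered 445, 6 and 38. With 1 array left out they ran from 5 to 802, from 0 to 475 and from 0 to 218. They were 1536, 41 and 333 after quantile normalization, 1958, 766 and 494 with arrays centred, 57, 3 and 8 with no level filter, 136, 0 and 0 with the compared arrays alone, 91, 0 and 7 with the next brightest probe set, and 819, 0 and 77 without tied genes. For 20 mg/kg against vehicle there were 285 without probe sets named _s_at or _x_at. For 4 mg/kg against vehicle there were 0 with log2(value + 16), with a mean log2 of at least 6 or with the mean of probe sets, and 2 with an intensity trend.

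Member genes called numbered 3, 0 and 1, and member probe sets likewise 3, 0 and 1. With 1 array left out, member genes ran from 0 to 1, stayed at 0 and ran from 0 to 1, as did member probe sets. Member genes were 5, 0 and 4 after quantile normalization, 5, 1 (SPRY4) and 4 with arrays centred, and 0 throughout with no level filter, the compared arrays alone or the next brightest probe set. Between the doses there were 2 with a mean log2 of at least 6, with an intensity trend or without _s_at and _x_at probe sets, and 3 without tied genes. Member probe sets were 5, 0 and 3 after quantile normalization, 6, 0 and 4 with arrays centred, and 0 throughout with no level filter or the compared arrays alone. Between the doses they were 2 with a mean log2 of at least 6 or without tied probe sets, and 0 with log2(value + 16) or an intensity trend. The causes were not tested.

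With the replicate number as a block the counts were 93, 0 and 0 for all genes, and 0 for member genes and member probe sets. The arrays share only a number: deviations of same-numbered arrays correlated at 0.15, -0.12 and 0.13, and vehicle replicate 2 correlated more closely with replicate 1 than with replicate 2 at 20 mg/kg. With the next brightest probe set SPRY1, SPRY2, SPRY4 and SPRED2 could not be fitted, nor SPRY4 without _s_at probe sets, since no other probe set passed the level filter. Signal near the lowest value of the table limits the 3 dim probe sets.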
